A study of Mus musculus with 12 samples.

Results

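Oxidative phosphorylation is carried out by proteins of 2 genomes, and the genes of both were followed here in BV2 cells, an immortalized mouse microglial line. Genes were taken by name: those beginning with Nduf, Uqcr, Cox4 to Cox8 or Atp5, the genes Cyc1 and Cycs, and the mitochondrially encoded genes, whose names begin with mt-. Of 21834 genes in the deposited table, 108 matched, and 99 of these reached at least 0.5 CPM (counts scaled by library size) in at least 3 libraries and were tested. They comprise 74 nuclear genes for subunits of complexes I (37), III (9), IV (11) and V (17), 13 mitochondrially encoded genes, of which 11 were tested, 8 assembly genes of complex I (Ndufaf1 to Ndufaf8), 8 genes for isoforms of subunits, of which 3 were tested, the carrier gene Cycs and the supercomplex gene Cox7a2l. The remaining 3 names belong to a pseudogene, a retrocopy or a second gene of the same name. The 9 genes that were not tested are Cox4i2, Cox8b, Cox8c, Cox7b2, Cox6b2, Ndufb11b, mt-Nd3, mt-Nd4l and the second gene called Atp5o.

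The cells carried a control short hairpin RNA (shCtrl) or one against Anxa2 (shAnxa2), as stable lines selected with puromycin, and each line was left untreated (CTRL) or taken through oxygen-glucose deprivation and reoxygenation (OGD/R), with 3 libraries per group and 12 in all. The labels give 4 h without glucose in 1% O2 and 12 h of reoxygenation, while the methods of the study give a longer reoxygenation. Whether a line was derived from 1 clone, and whether the libraries of a group came from separate cultures, is not stated in the labels, so p-values measure the spread between these libraries. Groups follow the sample titles; another label marks every OGD/R library as knockdown and every CTRL library as wild type.

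Complex I (NADH dehydrogenase), complex III (cytochrome bc1) and complex IV (cytochrome c oxidase) pass electrons to oxygen and pump protons across the inner mitochondrial membrane, and complex V (ATP synthase) uses the proton gradient to make ATP. Cytochrome c, encoded by Cycs, carries electrons from complex III to complex IV. Most subunits are encoded in the nucleus and imported, whereas a few hydrophobic core subunits are encoded by mitochondrial DNA, which is transcribed as long precursors from both strands and cut into single RNAs. The mitochondrial messengers encode 7 subunits of complex I, 1 of complex III (mt-Cytb), 3 of complex IV and 2 of complex V.

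**Figure D1:**
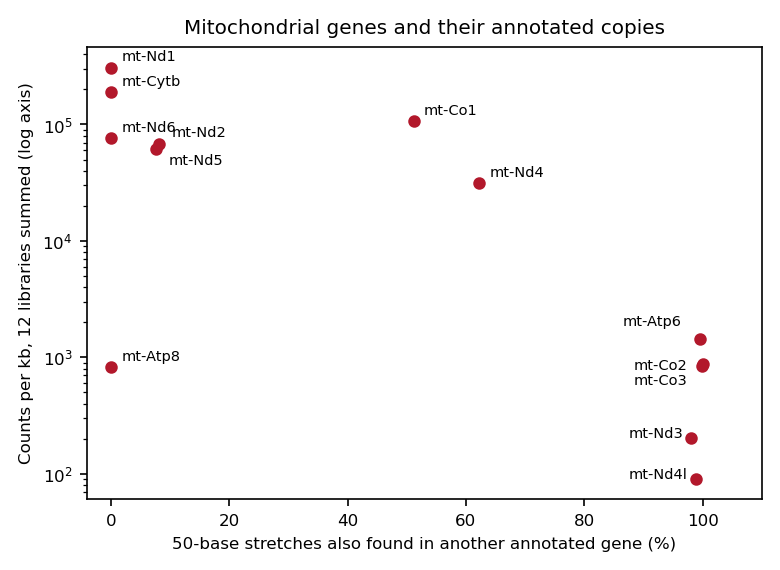
Counts per kb of exon, summed over the 12 libraries (y axis, log scale), against the percentage of 50-base stretches of each of the 13 mitochondrially encoded genes that also occur in another annotated gene (x axis); each point is a gene. The 5 genes above 90% lie at the bottom right, and mt-Atp8 is as low at 0%.

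Part of the mitochondrial genome has a near copy in the nucleus, which matters for how its reads were counted. In the GENCODE vM21 annotation of GRCm38, chromosome 1 carries a block of unprocessed pseudogenes on the minus strand, chr1:24611535-24616197, that matches 7 of the mitochondrially encoded genes in order, from mt-Co1 to mt-Nd4. The copy of mt-Co2 (Gm28661, 681 bases), that of mt-Atp6 (Gm10925, 678 bases), that of mt-Co3 (Gm28437, 783 bases) and that of mt-Nd4l (Gm10222, 294 bases) had 0 mismatches. The partial copy of mt-Nd4 (Gm28439, 876 bases) also had 0, that of mt-Nd3 (Gm28438, 345 bases) had 1, and that of mt-Co1 (Gm29216, 492 bases) had 6. The first 60 bases of the mt-Co2 match, chrM:7013-7072 and chr1:24615506-24615565 (minus strand), and the first 60 bases of the mt-Co1 match, chrM:6381-6440 and chr1:24616138-24616197 (minus strand), are printed to show how alike the genes and their copies are. Capitals mark the bases that differ.
mt-Co2: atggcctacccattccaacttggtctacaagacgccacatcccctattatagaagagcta
Gm28661: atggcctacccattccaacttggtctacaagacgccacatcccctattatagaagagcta
mt-Co1: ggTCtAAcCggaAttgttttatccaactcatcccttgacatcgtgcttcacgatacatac
Gm29216: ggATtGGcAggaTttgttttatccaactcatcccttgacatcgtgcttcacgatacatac

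The chrM positions in the deposited table, which the submitters' processing notes place on mm39, equalled those of vM21 for all 13 genes. The share of a gene's 50-base stretches that also occur in another annotated gene was 100% for mt-Co2, 99.9% for mt-Co3, 99.5% for mt-Atp6, 98.8% for mt-Nd4l and 98.0% for mt-Nd3, 62.2% for mt-Nd4 and 51.1% for mt-Co1, 8.19% for mt-Nd2 and 7.61% for mt-Nd5, and 0 for mt-Nd1, mt-Nd6, mt-Cytb and mt-Atp8. The 5 genes with the highest shares, together with mt-Atp8, which lies among them at chrM:7766-7969, held 27 to 983 counts over the 12 libraries, whereas the other 7 held 39668 to 295201. The shares count annotated genes only, so bases of the block between them, as between the copies of mt-Co2 and mt-Atp6, were not searched. Levels were therefore not compared between mitochondrially encoded genes, and the part that the copies play in the low counts was not tested. In addition, mt-Atp8 overlaps mt-Atp6, mt-Nd4l overlaps mt-Nd4, and mt-Nd6 lies on the other strand from the rest. Whether counting used the strand is not given in the sources used here, nor is poly(A) selection.

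Library totals ranged from 19521877 to 27288843 counts, and the 13 mitochondrially encoded genes took 0.250% to 0.472% of them. The targeted gene, Anxa2, a calcium-dependent membrane-binding protein, stood at 172 ± 6.36 CPM in shCtrl-CTRL, 279 ± 24.3 in shCtrl-OGDR, 40.4 ± 4.86 in shAnxa2-CTRL and 19.6 ± 1.26 in shAnxa2-OGDR (mean ± SD, n = 3), so the knockdown follows the titles. Summed over 10 microglial markers, all tested, libraries held 1766 to 1895 CPM in shCtrl-CTRL, 1604 to 1730 in shCtrl-OGDR, 1504 to 1602 in shAnxa2-CTRL and 1684 to 1721 in shAnxa2-OGDR. Csf1r, Cd68, Spi1, Ptprc and Trem2, averaging 175 to 485 CPM, gave nearly all of these sums. Aif1, Itgam, Cx3cr1, P2ry12 and Tmem119 averaged 2.09 to 14.1 CPM. The shCtrl-CTRL sums were the highest and the shAnxa2-CTRL sums the lowest, and their part in the results was not tested. None of 5 astrocyte markers passed the filter (sums of 0 to 0.382 CPM, Aqp4 at 0), and 1 of 5 neuronal markers did (Tubb3, sums of 0.376 to 1.33, Syt1 and Snap25 at 0). Across all genes, 5240 were called in both lines after OGD/R, and 5165 of these (98.6%) moved in opposite directions. The directions given for each line therefore rest on which titles carry CTRL and which carry OGDR.

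OGD/R in shCtrl cells was accompanied by lower levels of mitochondrially encoded RNAs and mostly higher levels of nuclear ones. Here a gene is called when its adjusted p is under 0.05 (edgeR quasi-likelihood test, Benjamini-Hochberg over the 11626 genes tested). Of the 99 genes, 41 rose, against 32.4% of all genes tested, and 14 fell, against 31.0%. Of the 11 mitochondrially encoded genes, 7 fell and 0 rose, with a median log2 fold change of -0.55, while of the 74 nuclear subunit genes 36 rose and 3 fell, with a median of 0.17. Over all genes the median was near 0, and the median size of a change was 0.30 on the log2 scale. In these bulk libraries, fewer cells of a kind and less RNA per cell cannot be told apart.

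The largest mitochondrial change was that of mt-Cytb (chrM:14145-15288), which encodes cytochrome b of complex III. Its CPM was 1130, 1155 and 1055 in the shCtrl-CTRL libraries, 426, 517 and 505 in shCtrl-OGDR, 545, 523 and 532 in shAnxa2-CTRL, and 907, 968 and 828 in shAnxa2-OGDR. Both shCtrl-OGDR and shAnxa2-CTRL lay far below both other groups, with no overlap in any of the 4 comparisons. OGD/R lowered it to 0.433 of the control level in shCtrl cells (log2 fold change -1.21 ± 0.063 SE, adjusted p = 5.25e-14) and raised it 1.69-fold in shAnxa2 cells (0.76 ± 0.062, adjusted p = 5.59e-10). The difference between those responses, shAnxa2 minus shCtrl, was 1.96 ± 0.088 on the log2 scale (adjusted p = 1.65e-15).

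**Figure D2:**
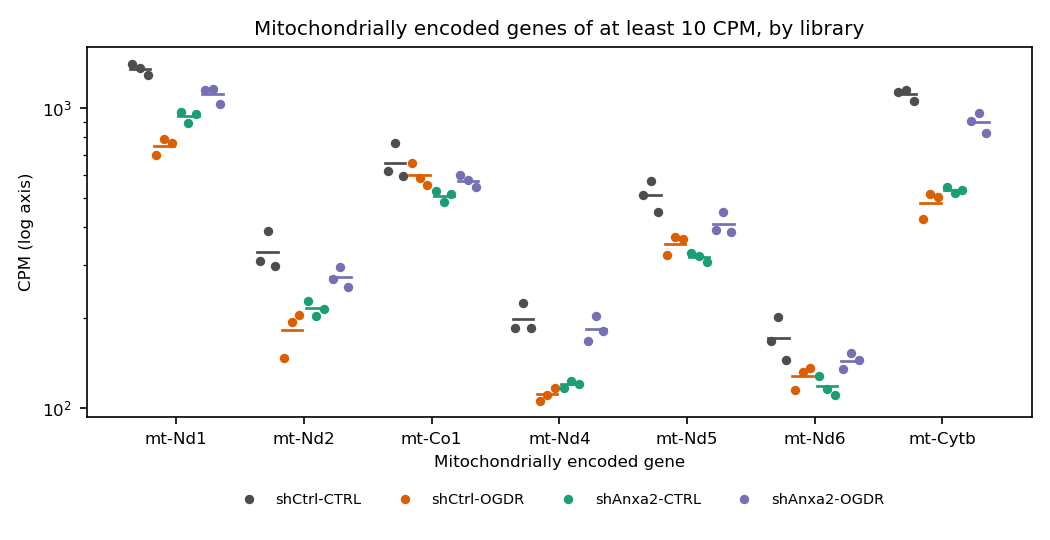
CPM (y axis, log scale) of the 7 mitochondrially encoded genes averaging at least 10 CPM, in genome order, with a point per library, coloured by group, and a line at each group's mean (n = 3). In all but mt-Co1, the shCtrl-CTRL libraries lie above those of shCtrl-OGDR and of shAnxa2-CTRL.

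The mitochondrially encoded complex I genes changed in the same directions as mt-Cytb after OGD/R, with smaller steps. For mt-Nd1, a core subunit of the membrane arm, CPM was 1408, 1368 and 1292 in shCtrl-CTRL, 700, 788 and 763 in shCtrl-OGDR, 971, 897 and 954 in shAnxa2-CTRL, and 1151, 1160 and 1031 in shAnxa2-OGDR. For mt-Nd4, a proton-pumping subunit, it was 185, 224 and 184, then 106, 110 and 117, then 116, 123 and 120, and 166, 202 and 180 in the same order of groups. All 5 complex I genes tested, mt-Nd1, mt-Nd2, mt-Nd4, mt-Nd5 and mt-Nd6, fell after OGD/R in shCtrl cells, by 0.42 to 0.88 on the log2 scale, and rose after OGD/R in shAnxa2 cells, by 0.24 to 0.61. For each of them the groups did not overlap in either comparison.

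Among the mitochondrially encoded genes of complex IV, mt-Co1, the catalytic subunit, changed least of those with at least 10 CPM. Its CPM was 616, 767 and 592 in shCtrl-CTRL, 657, 587 and 556 in shCtrl-OGDR, 528, 486 and 516 in shAnxa2-CTRL, and 600, 574 and 546 in shAnxa2-OGDR. After OGD/R its log2 fold change was -0.13 ± 0.073 in shCtrl cells (adjusted p = 0.11) and 0.17 ± 0.073 in shAnxa2 cells (adjusted p = 0.0528), neither of which passed. The value in shAnxa2 cells passed in 8 of the alternatives, with the replicate block (0.17, adjusted p = 0.0430), with no filter on low counts, with the 2 groups alone, and without any 1 shCtrl-CTRL library, the third shCtrl-OGDR or the third shAnxa2-OGDR library. That in shCtrl cells passed in 3, with no filter and without the third shCtrl-CTRL or the first shCtrl-OGDR library (-0.20, adjusted p of up to 0.0342). Without OGD/R it stood lower in the shAnxa2 line than in shCtrl (-0.37 ± 0.073, adjusted p = 1.29e-04). The difference between its OGD/R responses was 0.30 (adjusted p = 0.0115), and without the second shCtrl-CTRL library, the highest of the 12, it was 0.16 (adjusted p = 0.0880). With DESeq2 it was 0.30 (adjusted p = 0.0637).

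Counts of mt-Co2, the copper-binding subunit of complex IV, were low: 69, 78 and 68 in shCtrl-CTRL, 62, 33 and 38 in shCtrl-OGDR, 23, 37 and 16 in shAnxa2-CTRL, and 58, 69 and 50 in shAnxa2-OGDR. The gene rose 2.34-fold after OGD/R in shAnxa2 cells (log2 fold change 1.23 ± 0.28, adjusted p = 7.45e-04), and in shCtrl cells it stood at -0.55 ± 0.25 (adjusted p = 0.0579). mt-Co3 held 36 to 88 counts per library and passed in no comparison. For complex V, mt-Atp6 (50 to 141 counts) fell after OGD/R in shCtrl cells (-0.68 ± 0.17, adjusted p = 1.68e-03), and mt-Atp8 (6 to 23 counts) passed in none. Apart from mt-Atp8, these genes share nearly all of their sequence with annotated genes of the chromosome 1 block. In mitochondrial DNA, mt-Atp8 lies between mt-Co2 and mt-Atp6. The bases of the block between the copies of those genes were not compared.

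Because mt-Cytb and mt-Co1 moved by different amounts, their ratio within a library, which library size does not touch, also moved. This ratio was chosen after the values were seen and is given as a description. On the log2 scale it was 0.77 ± 0.15 in shCtrl-CTRL, -0.32 ± 0.27 in shCtrl-OGDR, 0.065 ± 0.034 in shAnxa2-CTRL and 0.65 ± 0.09 in shAnxa2-OGDR (SD, n = 3). The shCtrl-OGDR libraries, at -0.62 to -0.14, and the shAnxa2-CTRL libraries, at 0.045 to 0.11, lay below the libraries of the other groups, which ran from 0.59 to 0.88. The ratios of mt-Cytb to mt-Nd5 and to mt-Nd6 separated the groups in the same way. For mt-Nd1 over mt-Co1, shAnxa2-CTRL (0.881 to 0.886) lay within the range of shCtrl-CTRL (0.835 to 1.193), and only shCtrl-OGDR (0.091 to 0.457) lay below. Of the 50-base stretches of mt-Co1, 51.1% occur in another annotated gene, so ratios over it are uncertain.

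Nuclear subunit genes that rose after OGD/R in shCtrl cells did so by small amounts, and the share that rose stood above the 32.4% of all genes tested in complexes I, III and IV. In complex I, 20 of 37 rose and 1 fell (median log2 fold change 0.205); in complex III, 5 of 9 rose and 0 fell (0.17); in complex IV, 6 of 11 rose and 0 fell (0.155); and in complex V, 5 of 17 rose and 2 fell (0.11). The share of complex V that rose (29.4%) was near that background. The 3 that fell, named here after their values were seen, were Atp5g1 (-0.28), Atp5j (-0.28) and Ndufb10 (-0.30), and Ndufb10 lost its call without the second shCtrl-CTRL library (-0.20, with an adjusted p just above the threshold). Of the 7 nuclear genes for the catalytic core of complex I, 4 rose and 0 fell, and of its 30 accessory subunits 16 rose and 1 fell. No nuclear subunit gene changed by 2-fold: among all 99 genes, 3 called genes did, mt-Cytb, Cox6a2 and Ndufa4l2, against 6.73% of all genes tested.

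Uqcrq, a small ubiquinone-binding subunit of complex III (chr11:53318749-53321658, mm39), had the largest rise among nuclear subunit genes. Its CPM was 123, 107 and 111 in shCtrl-CTRL, 173, 154 and 177 in shCtrl-OGDR, 153, 175 and 172 in shAnxa2-CTRL, and 173, 178 and 215 in shAnxa2-OGDR. The shCtrl-CTRL libraries lay below all 9 others. It rose 1.47-fold after OGD/R in shCtrl cells (log2 fold change 0.56 ± 0.073, adjusted p = 4.08e-07). In shAnxa2 cells the change was 0.18 ± 0.072 (adjusted p = 0.0402), and without the third shAnxa2-OGDR library it was 0.069 (adjusted p = 0.408), and without the first shAnxa2-CTRL library 0.12 (adjusted p = 0.210); its call there was also lost without the third shCtrl-CTRL library (adjusted p = 0.0515) or the first shCtrl-OGDR library (adjusted p = 0.0530), and with DESeq2 (adjusted p = 0.0543).

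**Figure D3:**
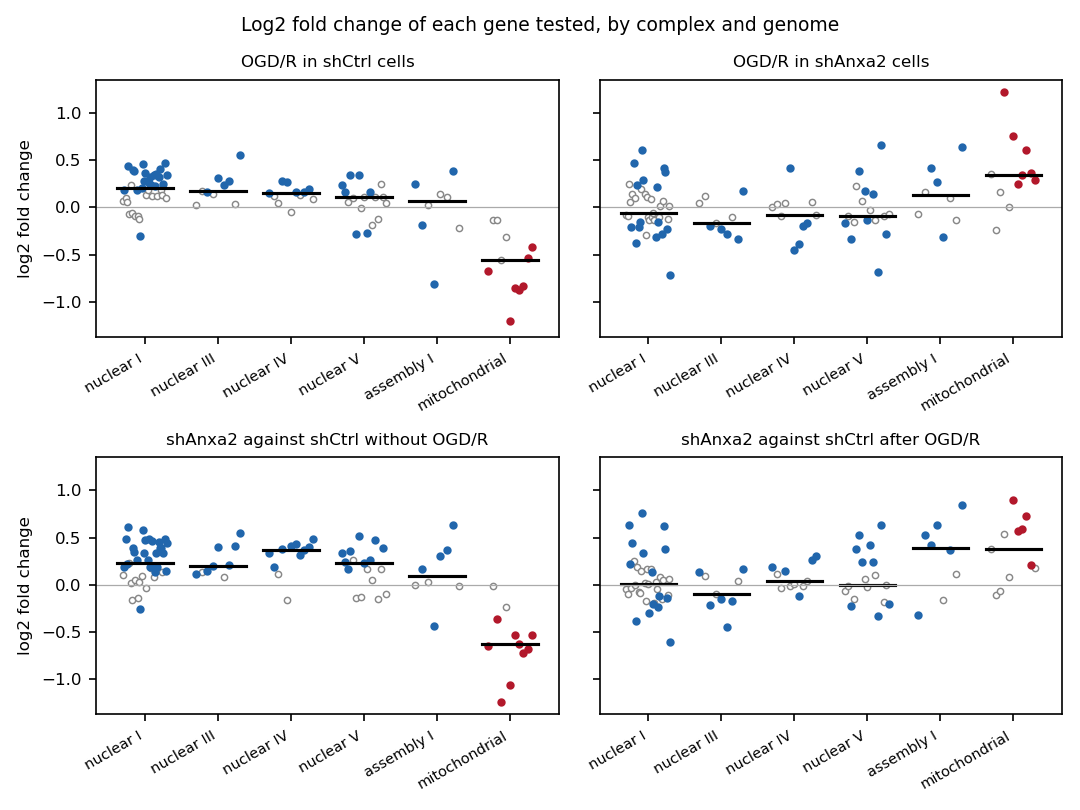
Log2 fold change (y axis) of each tested gene by complex and genome (x axis) in 4 comparisons; filled points have an adjusted p under 0.05 and open points do not, bars are medians, blue marks nuclear genes and red mitochondrially encoded genes. In the panels of OGD/R in shCtrl cells and of the lines without OGD/R, the medians of the nuclear complexes lie above 0 and that of the mitochondrially encoded genes lies below 0.

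The second comparison asks how the shAnxa2 line responded to OGD/R. Of the 99 genes, 25 rose, against 28.2% of all genes tested, and 24 fell, against 26.8%; both shares are near that background. Of 11 mitochondrially encoded genes 7 rose (63.6%) and 0 fell (median log2 fold change 0.34). Of 74 nuclear subunit genes 13 rose (17.6%), below the share of all genes, and 22 fell (29.7%), near it (median -0.09). Complex I had 7 that rose and 9 that fell, complex III 1 and 4, complex IV 1 and 4, and complex V 4 and 5. The share of complex I that fell (24.3%) and both shares of complex V (23.5% and 29.4%) were near those of all genes. At least 2-fold changes were called for mt-Co2 and Ndufa4l2, against 3.54% of all genes tested.

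Ndufv3, an accessory subunit of the NADH-binding module of complex I (chr17:31739089-31750305, mm39), fell most in that comparison. Its CPM was 40.8, 44.3 and 38.4 in shCtrl-CTRL, 47.4, 53.1 and 56.8 in shCtrl-OGDR, 59.8, 53.2 and 55.4 in shAnxa2-CTRL, and 31.3, 35.5 and 35.8 in shAnxa2-OGDR. It fell to 0.610 of its control level in shAnxa2 cells (log2 fold change -0.71 ± 0.075, adjusted p = 2.65e-08) and rose 1.27-fold in shCtrl cells (0.35 ± 0.073, adjusted p = 2.19e-04). Atp5l, subunit g of ATP synthase (chr9:44823855-44832040, mm39), fell by 0.69 ± 0.094 in shAnxa2 cells (adjusted p = 1.43e-06), from 104, 85.1 and 106 CPM to 62.2, 68.0 and 52.9. In shCtrl cells its groups overlapped, with 67.2, 76.1 and 69.8 CPM in CTRL and 65.0, 78.4 and 87.9 in OGDR (0.11 ± 0.093, adjusted p = 0.291).

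Some nuclear subunit genes went the other way. Atp5md, a small subunit of ATP synthase, rose 1.58-fold after OGD/R in shAnxa2 cells, from 24.9, 34.2 and 24.4 CPM to 42.2, 42.5 and 46.8 (log2 fold change 0.66 ± 0.12, adjusted p = 6.77e-05). Ndufb1, an accessory subunit of complex I, rose 1.52-fold, from 13.8, 20.2 and 17.2 CPM to 23.4, 28.8 and 25.7 (0.61 ± 0.11, adjusted p = 4.23e-05). Neither passed after OGD/R in shCtrl cells, where both stood at -0.12. In both genes the difference between the responses passed, at 0.78 for Atp5md (adjusted p = 2.91e-04) and 0.72 for Ndufb1 (adjusted p = 2.02e-04).

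**Figure D4:**
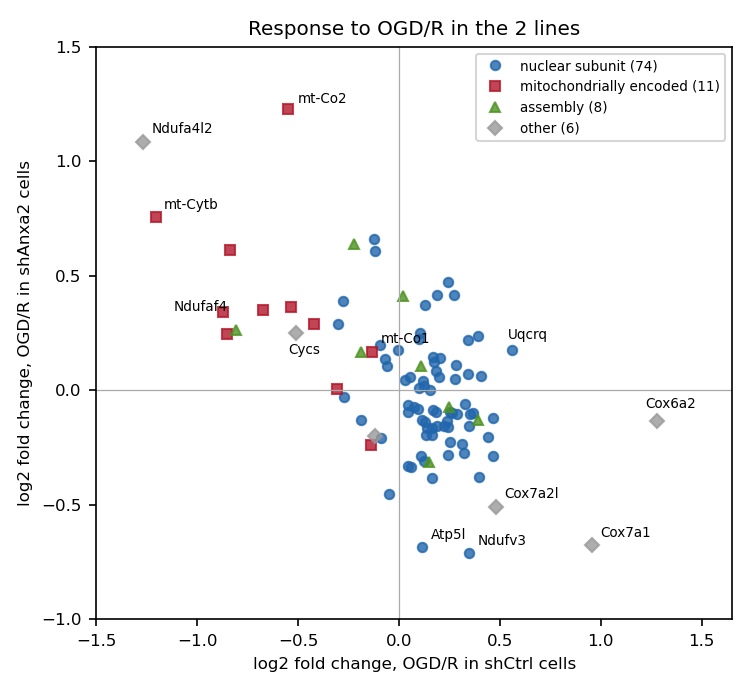
Log2 fold change after OGD/R in shCtrl cells (x axis) against that in shAnxa2 cells (y axis) for the 99 genes tested, with a point per gene and symbols by class. Most mitochondrially encoded genes lie in the upper left, most nuclear subunit genes lie right of 0, and Uqcrq lies in the upper right.

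The 2 responses have no library in common. Of the 99 genes, 30 were called in both lines, and 25 of them (83.3%) went in opposite directions, against 98.6% of all genes called in both. Of the 25, 14 rose in shCtrl cells and fell in shAnxa2 cells, 13 of them nuclear subunit genes, and 11 did the reverse, 6 of them mitochondrially encoded. The 5 that rose in both lines, Ndufc2, Cox6b1, Atp5j2, Ndufa7 and Uqcrq, named after their values were seen, are nuclear subunit genes of complexes I, III, IV and V, and 0 fell in both. In shAnxa2 cells Ndufc2, Atp5j2, Ndufa7 and Uqcrq each lost the call without the first shAnxa2-CTRL library or the third shAnxa2-OGDR library (0.07 to 0.22, adjusted p of 0.0559 to 0.408). Cox6b1 lost its call in shCtrl cells without the first library of either shCtrl group (0.23, adjusted p of up to 0.0582). In the test of the difference itself (the interaction of line and OGD/R), 20 genes had a higher response in shAnxa2 cells, against 34.9% of all genes tested, and 43 a lower one, against 35.1%. Of the nuclear subunit genes 38 of 74 had a lower response and 5 a higher one (median difference -0.25), and of the mitochondrially encoded genes 9 of 11 had a higher one and 0 a lower one (median 1.03). Differences of at least 2-fold were called for 11 genes, against 21.5% of all genes tested.

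Without OGD/R, most nuclear subunit genes were higher and most mitochondrially encoded genes lower in the shAnxa2 line. This comparison shares the 3 shCtrl-CTRL libraries with that of OGD/R in shCtrl cells, so the values of the comparisons are not independent. Of the 99 genes, 53 were higher in shAnxa2 cells, against 29.5% of all genes tested, and 12 were lower, against 29.7%. Nuclear subunit genes gave 49 higher and 1 lower of 74 (median log2 fold change 0.24), with 24 of 37 higher in complex I, 7 of 9 in complex III, 9 of 11 in complex IV and 9 of 17 in complex V. Mitochondrially encoded genes gave 0 higher and 9 lower of 11 (median -0.63). Only mt-Cytb and mt-Co2 among called genes differed by at least 2-fold, against 5.68% of all genes tested.

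Among called genes of at least 1 CPM that stood higher in the shAnxa2 line without OGD/R, Ndufaf7, Ndufa13 and Ndufb2 had the largest differences. Ndufaf7, a methyltransferase that acts on a core subunit during assembly of complex I, stood at 21.2 ± 0.555 CPM in shCtrl-CTRL and 32.7 ± 1.06 in shAnxa2-CTRL (log2 fold change 0.63 ± 0.067, adjusted p = 2.25e-08). Ndufa13, an accessory subunit also known as GRIM-19, stood at 67.3 ± 0.834 and 102 ± 4.51 (0.61 ± 0.063, adjusted p = 1.51e-08), and 28.5% of its 50-base stretches occur in another gene. Ndufb2, an accessory subunit of the membrane arm, stood at 3.90 ± 1.31 and 5.79 ± 0.307 (0.58 ± 0.18, adjusted p = 8.56e-03), and lost its call without the second shCtrl-CTRL library (0.39, adjusted p = 0.0735). Its call after OGD/R in shCtrl cells (0.47, adjusted p = 0.0295) was lost without any of 4 libraries, the second and the third of shCtrl-CTRL and the first and second of shCtrl-OGDR, at 0.28 to 0.43 (adjusted p of 0.0817 to 0.193).

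After OGD/R, 32 genes stood higher in the shAnxa2 line than in shCtrl, against 33.8% of all genes tested, and 19 were lower, against 34.2%. Of 74 nuclear subunit genes, 20 were higher and 15 lower (median log2 fold change 0.01), and of 11 mitochondrially encoded genes 5 were higher and 0 lower (median 0.37). Called differences of at least 2-fold were those of Cox6a2, Cox7a1 and Ndufa4l2, against 10.1% of all genes tested. mt-Nd5 was higher by 0.21 ± 0.071 (adjusted p = 0.0113), which did not pass without the first shCtrl-OGDR library (0.14, adjusted p = 0.111) or the second shAnxa2-OGDR library (0.13, adjusted p = 0.134). Without the latter library the median of the mitochondrially encoded genes was 0.18.

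**Figure D5:**
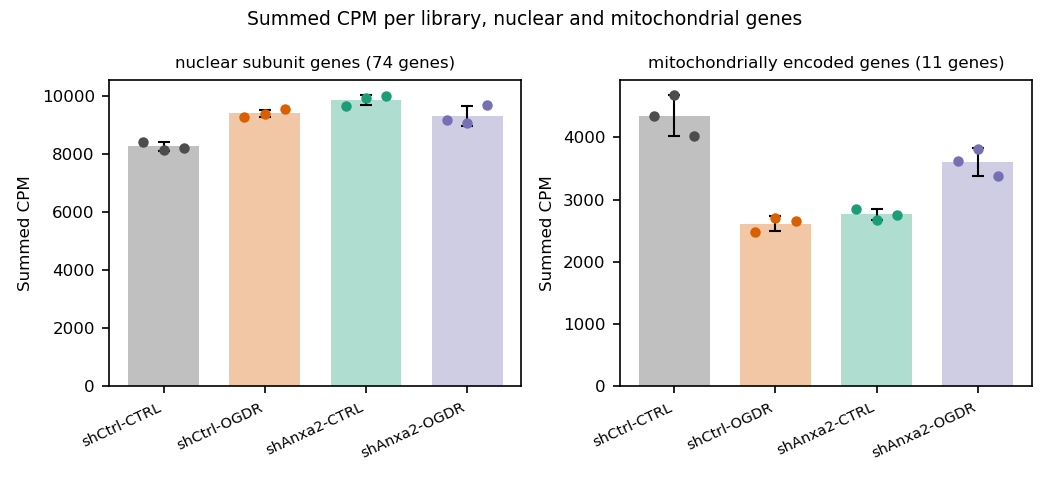
Summed CPM (y axes, from 0) of the 74 nuclear subunit genes and of the 11 mitochondrially encoded genes tested, by group (x axes), with a point per library, bars at the mean and whiskers of 1 SD (n = 3). The nuclear sum is lowest in shCtrl-CTRL, where the mitochondrial sum is highest.

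Summed over genes, the nuclear subunits came to 8421, 8134 and 8214 CPM in shCtrl-CTRL, 9273, 9375 and 9540 in shCtrl-OGDR, 9658, 9920 and 10010 in shAnxa2-CTRL, and 9162, 9076 and 9685 in shAnxa2-OGDR. The mitochondrially encoded genes came to 4337, 4689 and 4026 CPM, then 2481, 2703 and 2655, then 2849, 2678 and 2758, and 3628, 3813 and 3376. Nearly all of this sum came from the 7 genes of at least 10 CPM, with 4340 of a mean of 4351 CPM in shCtrl-CTRL. These include mt-Co1 alone for complex IV and no gene of complex V, and mt-Nd1 and mt-Cytb had the highest levels among them. Relative to the shCtrl-CTRL mean, the nuclear sum stood at 1.14, 1.20 and 1.13 in shCtrl-OGDR, shAnxa2-CTRL and shAnxa2-OGDR, and the mitochondrial sum at 0.601, 0.635 and 0.829. The mitochondrial groups did not overlap except for shCtrl-OGDR and shAnxa2-CTRL, whose ranges met between 2678 and 2703. By complex, the nuclear sum in shAnxa2-CTRL ranged from 1.17 (complex V) to 1.27 (complex IV) times that in shCtrl-CTRL.

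The log2 ratio of the mitochondrial to the nuclear sum, taken within each library, was -0.93 ± 0.12 in shCtrl-CTRL, -1.85 ± 0.054 in shCtrl-OGDR, -1.84 ± 0.067 in shAnxa2-CTRL and -1.37 ± 0.14 in shAnxa2-OGDR (SD, n = 3). Every shCtrl-CTRL library (-1.03 to -0.80) lay above every shAnxa2-OGDR library (-1.52 to -1.25), and these above all libraries of the remaining groups (-1.90 to -1.76). The order of the groups at either end thus held in each library, and shCtrl-OGDR and shAnxa2-CTRL did not differ beyond their spread. With no TMM factor, the group ratios of the sums were 1.14, 1.20 and 1.11 for nuclear and 0.602, 0.636 and 0.815 for mitochondrially encoded genes. In the first shAnxa2-OGDR library, Lars2, the mitochondrial leucyl-tRNA synthetase gene, reached 3394 CPM against 19.9 to 112 in the 11 others; the mitochondrial sum of that library, 3628, lay between those of the other shAnxa2-OGDR libraries.

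Cycs, the cytochrome c gene (chr6:50539543-50543518, mm39), is nuclear but moved in the same directions as most mitochondrially encoded genes. So did 2610 of the 5240 genes called in both lines after OGD/R, which fell in shCtrl and rose in shAnxa2 cells. The CPM of Cycs was 130, 124 and 130 in shCtrl-CTRL, 89.4, 86.9 and 93.3 in shCtrl-OGDR, 108, 103 and 118 in shAnxa2-CTRL, and 136, 133 and 122 in shAnxa2-OGDR. The groups did not overlap in any of the 4 comparisons. It fell after OGD/R in shCtrl cells (log2 fold change -0.51 ± 0.054, adjusted p = 1.30e-08) and rose in shAnxa2 cells (0.25 ± 0.054, adjusted p = 3.66e-04). Of its 50-base stretches 26.1% occur in another annotated gene, so its level is uncertain. Cyc1, cytochrome c1 of complex III, stood at 230 ± 4.26, 235 ± 7.35, 250 ± 3.71 and 258 ± 12.5 CPM in the same order of groups. It passed in neither line after OGD/R, and its higher level in shAnxa2 than in shCtrl cells without OGD/R (0.12, adjusted p = 0.0342) was lost without any of 4 libraries, the first or second of shCtrl-CTRL and the first or second of shAnxa2-CTRL (adjusted p of 0.0665 to 0.0890).

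Ndufaf4, an assembly factor of complex I (chr4:24898083-24905001, mm39), chosen after its values were seen, moved in the same directions as Cycs. Its CPM was 18.9, 21.6 and 19.4 in shCtrl-CTRL, 11.03, 11.6 and 11.7 in shCtrl-OGDR, 14.9, 14.4 and 14.8 in shAnxa2-CTRL, and 18.7, 19.2 and 14.9 in shAnxa2-OGDR. It fell after OGD/R in shCtrl cells (log2 fold change -0.81 ± 0.095, adjusted p = 7.42e-08) and rose in shAnxa2 cells (0.27 ± 0.095, adjusted p = 0.0217). The rise was lost without the second shAnxa2-CTRL library or the first or the second shAnxa2-OGDR library, at 0.19 to 0.25 (adjusted p of 0.0590 to 0.151). Ndufaf8, an assembly factor that acts with Ndufaf5, rose in shAnxa2 cells from 6.40 ± 0.592 to 9.91 ± 1.49 CPM (0.64 ± 0.13, adjusted p = 1.65e-04). Of the 8 Ndufaf genes, 2 rose and 2 fell after OGD/R in shCtrl cells (25% each), against 32.4% and 31.0% of all genes tested. In shAnxa2 cells 3 rose (37.5%) and 1 fell (12.5%), against 28.2% and 26.8%. With 8 genes, 1 gene is 12.5% of the set.

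Cox7a2l joins complexes III and IV into supercomplexes (chr17:83809347-83824759, mm39). After OGD/R it moved in opposite directions in the 2 lines, as did 98.6% of all genes called in both. Its CPM was 80.6, 81.6 and 86.2 in shCtrl-CTRL, 112, 115 and 121 in shCtrl-OGDR, 95.9, 107 and 78.2 in shAnxa2-CTRL, and 68.5, 71.6 and 56.7 in shAnxa2-OGDR. All shCtrl-OGDR libraries lay above, and all shAnxa2-OGDR libraries below, every other library. It rose after OGD/R in shCtrl cells (log2 fold change 0.48 ± 0.081, adjusted p = 1.58e-05) and fell in shAnxa2 cells (-0.51 ± 0.084, adjusted p = 1.72e-05). Atpif1, the inhibitor of ATP synthase, which lies outside the naming rule, rose in shCtrl cells (0.36 ± 0.057, adjusted p = 5.94e-06) and fell in shAnxa2 cells (-0.14, adjusted p = 0.0340). The latter call was lost without the third shAnxa2-CTRL library or the first or second shAnxa2-OGDR library, at -0.13 to -0.083 (adjusted p of 0.106 to 0.240).

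The genes for isoforms of complex IV subunits, which in the body are used mainly in muscle or under particular conditions, were near the limit of detection. Cox6a2, the heart and muscle form of subunit 6a (chr7:127804607-127805559, mm39), held 51, 54 and 47 counts in shCtrl-CTRL, 150, 87 and 98 in shCtrl-OGDR, 19, 34 and 32 in shAnxa2-CTRL, and 20, 24 and 32 in shAnxa2-OGDR. It rose after OGD/R in shCtrl cells (log2 fold change 1.28), and in shAnxa2 cells its groups overlapped (-0.13). Cox7a1, the muscle form of subunit 7a (chr7:29883569-29885503, mm39), held 16 to 35, 25 to 57, 16 to 27 and 9 to 17 counts in the same order of groups. Its call in shCtrl cells (0.95) was lost without the second or the third shCtrl-CTRL library or the second shCtrl-OGDR library, at 0.71 to 0.76 (adjusted p of 0.0730 to 0.105).

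Ndufa4l2, a hypoxia-inducible relative of Ndufa4 (chr10:127350836-127353023, mm39), held 25, 25 and 9 counts in shCtrl-CTRL, 8, 4 and 10 in shCtrl-OGDR, 12, 8 and 10 in shAnxa2-CTRL, and 20, 20 and 23 in shAnxa2-OGDR. OGD/R changed it by -1.27 on the log2 scale in shCtrl and by 1.09 in shAnxa2 cells. Each of these calls was lost without any of 4 libraries: in shCtrl cells the first or second of either shCtrl group (-1.27 to -0.90, adjusted p of 0.0506 to 0.117), and in shAnxa2 cells the second or the third of shAnxa2-CTRL and the first or the third of shAnxa2-OGDR (0.97 to 1.05, adjusted p of 0.0724 to 0.0977). Ndufa4 itself, a subunit of complex IV despite its name, stood at 85.3 ± 9.83, 91.0 ± 4.43, 119 ± 22.5 and 113 ± 9.87 CPM, passed in neither line after OGD/R, and stood higher in the shAnxa2 line without OGD/R (0.49 ± 0.092, adjusted p = 8.04e-05). Cox4i1, the general form of subunit 4, stood at 365 ± 20.1, 406 ± 9.85, 461 ± 24.8 and 461 ± 33.8 CPM. Its rise after OGD/R in shCtrl cells (0.15, adjusted p = 0.0184) was lost without the third shCtrl-CTRL library (0.13, adjusted p = 0.0808) or the third shCtrl-OGDR library (0.14, adjusted p = 0.0676). Cox4i2, the form induced at low oxygen in lung, held 0 to 2 counts per library.

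The c-ring of ATP synthase is encoded by Atp5g1, Atp5g2 and Atp5g3, whose mature proteins are the same, and the genes did not move together; this set was chosen after its values were seen. Atp5g1 fell after OGD/R in shCtrl cells, from 72.0, 83.5 and 66.4 CPM to 57.6, 65.8 and 59.4 (log2 fold change -0.28 ± 0.075, adjusted p = 2.22e-03), and rose in shAnxa2 cells (0.39 ± 0.075, adjusted p = 1.07e-04). Atp5g2 rose in shCtrl cells, from 49.2, 50.04 and 47.7 CPM to 58.8, 60.1 and 67.5 (0.34 ± 0.077, adjusted p = 4.39e-04), and did not pass in shAnxa2 cells (0.07). Atp5g3 stood at -0.01 in shCtrl cells and rose in shAnxa2 cells (0.18, adjusted p = 0.0182), a call lost without the second shAnxa2-OGDR library (0.17, adjusted p = 0.0587). In Atp5g2, 38.3% of 50-base stretches occur in another annotated gene, so its values are uncertain.

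Levels per length are given for nuclear genes, with the length taken as all annotated exons of a gene together. Which of those exons the RNA of these cells holds was not examined, so the order of the genes is approximate. Per kb of exon, averaged over the 12 libraries, the highest nuclear subunit of each complex was Atp5b, the catalytic beta subunit of ATP synthase, at 361 CPM per kb, Cox8a, a small subunit of complex IV, at 306, Ndufa8, an accessory subunit of complex I, at 169, and Uqcr10, a small subunit of complex III, at 136. Atp5b rose after OGD/R in shCtrl cells (log2 fold change 0.17 ± 0.039, adjusted p = 6.73e-04), from 1386 ± 29.4 to 1556 ± 10.8 CPM, and Uqcr10 did not pass (0.17, adjusted p = 0.0547), though it did in 10 of the alternatives, the replicate block, limma-voom and both other filters among them. The other 6 each left out 1 library, the first or the second shCtrl-CTRL, the first shCtrl-OGDR, the second or the third shAnxa2-CTRL or the third shAnxa2-OGDR library (adjusted p of up to 0.0491). Between the lines without OGD/R it passed with no filter and without the first shCtrl-CTRL or the third shAnxa2-CTRL library. Ndufa8 fell in shAnxa2 cells (-0.21 ± 0.051, adjusted p = 1.20e-03). Without OGD/R, Cox8a stood higher in the shAnxa2 line (0.40 ± 0.074, adjusted p = 6.20e-05). Its rise after OGD/R in shCtrl cells (0.20, adjusted p = 0.0248) was lost without any of 4 libraries, the second or the third of either shCtrl group (0.13 to 0.19, adjusted p of 0.0553 to 0.154).

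The promoters of respiratory chain genes are known for sites of NRF1 and of ETS factors such as GABP. RefSeq start sites on GRCm38.p6 were matched to 72 of the 88 nuclear genes tested, and the 250 bases before each were searched on both strands for the letters GCGCATGC (NRF1-type), CCGGAAG (ETS-type) and AAGATGG (YY1-type). The NRF1-type letters were in 9 of the 72 (12.5%) against 2.56% of 27025 promoters, the ETS-type letters in 13 (18.1%) against 7.83%, and the YY1-type letters in 1 (1.39%) against 5.18%. Bases after the start site were not searched, so any matches there are not counted. The 27025 promoters are more than the 11626 genes tested, so they include genes below the filter, whereas the 72 all passed it. A background of tested genes alone was not computed. Windows of 4 genes with NRF1-type letters are printed because these genes gave different responses to OGD/R. They lie on GRCm38 at chr6:50566602-50566649 (minus strand) for Cycs, chr4:24897950-24897999 (plus) for Ndufaf4, chr15:82354347-82354394 (minus) for Ndufa6 and chr9:44920928-44920992 (minus) for Atp5l, and capitals mark the matched letters of either motif.
Cycs: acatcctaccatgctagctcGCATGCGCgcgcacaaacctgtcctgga
Ndufaf4: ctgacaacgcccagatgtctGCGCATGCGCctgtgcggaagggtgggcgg
Ndufa6: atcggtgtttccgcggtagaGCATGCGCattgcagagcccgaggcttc
Atp5l: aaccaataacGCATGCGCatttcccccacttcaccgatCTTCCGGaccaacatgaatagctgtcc

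After OGD/R in shCtrl cells, Cycs and Ndufaf4 fell, Ndufa6, an accessory subunit of complex I chosen after its values were seen, rose (log2 fold change 0.40), and Atp5l did not pass. In shAnxa2 cells Cycs and Ndufaf4 rose, and Ndufa6 (-0.38) and Atp5l fell. The CPM of Ndufa6 was 63.4, 60.8 and 62.0 in shCtrl-CTRL, 77.2, 81.9 and 86.0 in shCtrl-OGDR, 81.4, 77.8 and 84.7 in shAnxa2-CTRL, and 63.3, 63.4 and 61.0 in shAnxa2-OGDR. A match is a description of letters and not evidence that a factor was bound.

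Genes that act on mitochondrial DNA and RNA, encoded in the nucleus, were compared as lists. Of all genes tested, 32.4% rose and 31.0% fell after OGD/R in shCtrl cells, 28.2% and 26.8% did in shAnxa2 cells, 29.5% were higher and 29.7% lower between the lines without OGD/R, and 33.8% and 34.2% after it, and each count below is to be read against these shares. Of 19 genes for processing and stability of mitochondrial RNA, 3 rose and 13 fell after OGD/R in shCtrl cells, 9 rose and 3 fell in shAnxa2 cells, 4 were higher and 7 lower in shAnxa2 than in shCtrl cells without OGD/R, and 11 were higher and 3 lower after it. The share that fell in shCtrl cells was 68.4% and the share that rose in shAnxa2 cells 47.4%. Fastkd3, an RNA-binding protein of mitochondria, had 35.2, 40.0 and 37.0 CPM in shCtrl-CTRL, 20.9, 23.1 and 22.3 in shCtrl-OGDR, 30.5, 31.1 and 33.8 in shAnxa2-CTRL, and 42.9, 44.6 and 41.0 in shAnxa2-OGDR. It fell after OGD/R in shCtrl cells (log2 fold change -0.76 ± 0.071, adjusted p = 1.51e-09) and rose in shAnxa2 cells (0.43 ± 0.069, adjusted p = 1.16e-05). Elac2, the nuclease that trims mitochondrial transfer RNAs, chosen after its values were seen, moved likewise (-0.63 and 0.46). Hsd17b10, a subunit of mitochondrial RNase P and a dehydrogenase, did the reverse (0.66 and -0.49), and was higher in shAnxa2 cells without OGD/R (0.85 ± 0.063, adjusted p = 4.65e-11).

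Of 16 genes for the maintenance and transcription of mitochondrial DNA, 3 rose and 8 fell after OGD/R in shCtrl cells, and 5 rose and 2 fell in shAnxa2 cells. Without OGD/R 3 were higher and 5 lower in shAnxa2 cells, and after it 7 were higher and 2 lower. The share that fell in shCtrl cells was 50%, while the share that rose in shAnxa2 cells (31.3%) and the share that was lower without OGD/R (31.3%) were near those of all genes. Mgme1, an exonuclease of mitochondrial DNA, fell in shCtrl cells (log2 fold change -0.24) and rose in shAnxa2 cells (0.38). Tefm, a transcription elongation factor, did the reverse (0.32 and -0.24), and its fall in shAnxa2 cells (adjusted p = 0.0170) was lost without the second or the third shAnxa2-CTRL library or the second shAnxa2-OGDR library, at -0.22 to -0.18 (adjusted p of 0.0593 to 0.102).

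Of 12 tested regulators of respiratory chain genes, 2 rose and 4 fell after OGD/R in shCtrl cells, and 6 rose and 3 fell in shAnxa2 cells. Without OGD/R 4 were higher and 4 lower in shAnxa2 cells, and after it 5 were higher and 2 lower. The share that fell in shCtrl cells and both shares without OGD/R (33.3% each) were near those of all genes, as was the share that fell in shAnxa2 cells (25%). Myc, a transcription factor that acts on many nuclear genes for mitochondria, had the largest changes of the list. Its CPM was 1.96 to 2.87 in shCtrl-CTRL, 9.37 to 11.1 in shCtrl-OGDR, 7.58 to 8.28 in shAnxa2-CTRL and 2.28 to 3.54 in shAnxa2-OGDR. It rose in shCtrl cells (log2 fold change 1.99 ± 0.15, adjusted p = 4.57e-11) and fell in shAnxa2 cells (-1.42 ± 0.16, adjusted p = 6.97e-08).

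Coenzyme Q carries electrons from complexes I and II to complex III. Of 13 genes for its synthesis, 7 rose and 4 fell after OGD/R in shCtrl cells, 4 rose and 4 fell in shAnxa2 cells, 8 were higher and 3 lower in shAnxa2 cells without OGD/R, and 4 were higher and 5 lower after it. Both shares in shAnxa2 cells (30.8% each), the share that fell in shCtrl cells (30.8%) and both shares after OGD/R (30.8% and 38.5%) were near those of all genes. Coq8a, an atypical kinase of the synthesis complex, had 7.02, 6.85 and 7.75 CPM in shCtrl-CTRL, 56.7, 47.2 and 52.9 in shCtrl-OGDR, 31.7, 32.7 and 30.02 in shAnxa2-CTRL, and 8.42, 8.34 and 9.21 in shAnxa2-OGDR. Its groups were far apart in each comparison: it rose in shCtrl cells (log2 fold change 2.86 ± 0.086, adjusted p = 5.61e-18) and fell in shAnxa2 cells (-1.86 ± 0.089, adjusted p = 7.58e-14).

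Of the 8 genes for complex II (succinate dehydrogenase) and its assembly, 4 rose and 1 fell after OGD/R in shCtrl cells, and 1 rose and 2 fell in shAnxa2 cells. With 8 genes, 1 gene is 12.5% of the list, and the 2 that fell in shAnxa2 cells are near the 26.8% of all genes. Sdhc, a membrane anchor of the complex, had 222, 214 and 222 CPM in shCtrl-CTRL, 294, 293 and 293 in shCtrl-OGDR, 283, 269 and 272 in shAnxa2-CTRL, and 228, 228 and 238 in shAnxa2-OGDR. It rose in shCtrl cells (log2 fold change 0.42 ± 0.045, adjusted p = 1.68e-08) and fell in shAnxa2 cells (-0.25 ± 0.045, adjusted p = 5.60e-05). Among assembly genes outside the naming rule, in the order shCtrl then shAnxa2, 3 rose and 2 fell and then 1 rose and 2 fell of 10 for complex I, 2 rose and 2 fell and then 4 rose of 6 for complex III, and 7 rose and 7 fell and then 11 rose and 3 fell of 24 for complex IV. The shares in shCtrl cells for complexes III (33.3% each) and IV (29.2% each) and the share of the complex I list that rose (30%) were near those of all genes. Of 5 for complex V, 1 rose and 1 fell in shCtrl cells, and in shAnxa2 cells their log2 fold changes ran from -0.17 to 0.13 with adjusted p of 0.0673 to 0.656 (edgeR).

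Nubpl, which delivers iron-sulfur clusters to complex I, rose in shCtrl cells (log2 fold change 0.71 ± 0.11, adjusted p = 4.17e-06) and fell in shAnxa2 cells (-0.52 ± 0.11, adjusted p = 4.06e-04). Coa7, an assembly factor of complex IV, fell in shCtrl cells (-0.77 ± 0.099, adjusted p = 3.09e-07) and rose in shAnxa2 cells (0.56 ± 0.098, adjusted p = 3.34e-05). Pet100, another assembly factor of complex IV, fell in shAnxa2 cells (-1.31 ± 0.20, adjusted p = 4.59e-06), from 28.3, 12.8 and 23.6 CPM to 8.77, 8.90 and 8.44. The shAnxa2-CTRL libraries of this gene were spread widely, and its difference between the lines without OGD/R (0.51, adjusted p = 0.0175) was lost without the third shCtrl-CTRL library or the first or the third shAnxa2-CTRL library, at 0.28 to 0.44 (adjusted p of 0.0711 to 0.199).

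Further genes had the largest called change of their list in a comparison. Slirp, the partner of the messenger-stabilizing protein Lrpprc, fell after OGD/R in both lines, by 1.01 ± 0.37 (adjusted p = 0.0206) in shCtrl and by 1.35 ± 0.38 (adjusted p = 4.28e-03) in shAnxa2 cells on the log2 scale. Levels of Slirp were near the filter of 0.5 CPM. They were 1.03 to 1.58 CPM in shCtrl-CTRL, 0.256 to 0.916 in shCtrl-OGDR, 0.818 to 1.81 in shAnxa2-CTRL and 0.459 to 0.679 in shAnxa2-OGDR. The call of Slirp in shCtrl cells was lost without the third shCtrl-CTRL library or the first or the third shCtrl-OGDR library, at -0.97 to -0.71 (adjusted p of 0.0580 to 0.114). Tfb2m, a mitochondrial transcription factor, rose in shAnxa2 cells (0.39 ± 0.099, adjusted p = 1.74e-03), as did Uqcc3, an assembly factor of complex III (0.47 ± 0.10, adjusted p = 5.44e-04). Atpaf2, an assembly factor of complex V, fell in shCtrl cells (-0.28 ± 0.063, adjusted p = 4.37e-04). Sdhaf3, an assembly factor of complex II, rose there by 0.45 (adjusted p = 0.0437), a call that 8 alternatives did not keep, DESeq2 (adjusted p = 0.0550) and the removal of any of 5 shCtrl libraries, the first, second and the third of CTRL and the first and second of OGDR, among them (adjusted p of 0.0523 to 0.159).

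Between the lines without OGD/R, Sdhb, the iron-sulfur subunit of complex II, was higher in shAnxa2 cells (log2 fold change 0.35 ± 0.053, adjusted p = 4.60e-06), and so were the assembly genes Higd2a of complex IV (0.54 ± 0.10, adjusted p = 5.66e-05), Fmc1 of complex V (0.43 ± 0.12, adjusted p = 5.14e-03) and Uqcc2 of complex III (0.25 ± 0.054, adjusted p = 3.22e-04). After OGD/R, Ttc19 of complex III (0.56 ± 0.091, adjusted p = 8.38e-06) and Sdhaf2 of complex II (0.38 ± 0.056, adjusted p = 2.49e-06) were higher in shAnxa2 cells.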

How the data were processed

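The libraries are of BV2 cells in 4 groups of 3 (shCtrl or shAnxa2, CTRL or OGDR). The table that the authors deposited gives unnormalized read counts for genes that it marks as protein-coding, and 12 further per-sample columns of normalized values, which were not used. The submitters' processing notes name HISAT2 2.0.4 and mm39; the counting tool for these cells is not given in the sources used here. Library totals were 19521877 to 27288843.

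The 11626 genes that reached 0.5 CPM in 3 or more libraries were fitted with edgeR 4.0.16 (R 4.3.3) in 1 quasi-likelihood model over the 12 libraries, with TMM factors, Benjamini-Hochberg adjustment over all genes tested and a threshold of 0.05. The common biological coefficient of variation was 5.355%. The standard error is the size of the log2 fold change divided by the square root of F. Printed CPM use TMM-scaled library totals. No test was run over a list. Replicates differed by more than counting error (chi-square per gene of 3.96 to 12.9), so none was counted as a second run of the same library. This does not show whether they came from separate cultures. The highest values, 9.91 and 12.9, both include the first shAnxa2-OGDR library, in which Lars2 stood apart, and the pair without it was at 7.14.

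Members, lists and tests were chosen with earlier results of these data known. Genes named with values are the mitochondrially encoded genes, the 3 members of at least 1 CPM with the largest called change per comparison and direction, the highest per length in each complex, 8 genes of known roles, the largest called change per comparison in each other list, Anxa2 and Lars2. Other named genes are marked as chosen after their values were seen. Alternatives were other normalizations, filters, DESeq2 1.42.0, limma-voom (limma 3.58.1), the replicate block, fits of the 2 groups compared and leaving out each library. Python 3.11.15, pandas 2.3.3, numpy 2.4.6 and matplotlib 3.10.9 were used. Sequence overlap was counted over 50-base stretches of GENCODE vM21 transcripts (GRCm38). A further marker list is not reported here.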

Additional observations from a re-analysis of the deposited data

Results flagged for a closer look

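The response to OGD/R differed between the lines, by the test of the interaction, for 20 genes with a higher response in shAnxa2 cells and 43 with a lower one. Groups of 3 libraries were too small to test for a sample far from the others. For the named genes, the log2 difference of the responses, shAnxa2 minus shCtrl, was as follows, each called.

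Among mitochondrially encoded genes it was 1.96 for mt-Cytb, 1.78 for mt-Co2, 1.45 for mt-Nd4, 1.22 for mt-Nd2, 1.10 for mt-Nd1, 1.03 for mt-Atp6, 0.90 for mt-Nd5, 0.71 for mt-Nd6 and 0.30 for mt-Co1. Among nuclear genes with a higher response in shAnxa2 cells it was 2.35 for Ndufa4l2 (4 to 25 counts per library), 0.86 for Ndufaf8, 0.78 for Atp5md, 0.76 for Cycs and 0.72 for Ndufb1. Among those with a lower response it was -1.63 for Cox7a1 (9 to 57 counts per library), -1.41 for Cox6a2, -1.06 for Ndufv3, -0.99 for Cox7a2l, -0.80 for Atp5l, -0.75 for Ndufb2, -0.65 for Ndufa13, -0.52 for Ndufaf7, -0.38 for Uqcrq and -0.25 for Atp5b.

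Among the genes of the other lists it was -4.72 for Coq8a, -3.41 for Myc, -1.35 for Pet100, -1.23 for Nubpl, -0.66 for Sdhc, -0.66 for Tfb1m, which methylates the small mitochondrial ribosomal RNA, and -0.41 for Tmem242, which takes part in assembly of ATP synthase. It was 1.19 for Fastkd3 and 0.64 for Ttc19, which acts on complex III.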

How the results depend on the processing

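Every called gene among the 99 kept its sign under each alternative run. The call held in every alternative for 40 of 55 genes for OGD/R in the shCtrl line, 34 of 49 in the shAnxa2 line, 48 of 65 between the lines without OGD/R, 36 of 51 after it and 54 of 63 for the interaction. Of 454 recomputed counts, medians and sums, 446 stayed within 1.5 times or within the spread between replicates.

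The exceptions concerned medians. With the 7 mitochondrially encoded genes of at least 10 CPM (chosen after seeing the data), the median was -0.84 on the log2 scale for OGD/R in shCtrl cells and 0.57 between the lines after OGD/R, where it was 0.52 with no filter on low counts. Leaving out 1 library at a time, the mitochondrial median ranged from -0.68 to -0.52 between the lines without OGD/R, from 0.18 to 0.47 after it and from 0.83 to 1.13 for the interaction, and the nuclear interaction median from -0.28 to -0.20. The cause was not tested.

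Deviations from the group means were weakly correlated between CTRL and OGDR libraries of the same replicate number. The correlations were 0.015, -0.024 and -0.033 in the shCtrl line and 0.024, 0.044 and 0.13 in the shAnxa2 line. The numbers were not taken as pairs in the main fit. With the replicate block, 43 genes rose and 14 fell in the shCtrl line, 27 rose and 25 fell in the shAnxa2 line, 51 were higher and 12 lower between the lines without OGD/R, 32 and 20 after it, and 22 and 43 for the interaction. The low counts of mt-Co2, mt-Co3, mt-Atp6, mt-Atp8 and the isoform genes limit what can be seen in them.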
